A study of Mus musculus with 18 samples.

Results

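Messenger RNA of 46 mouse genes that act in mitosis and at the G2/M boundary was followed through 6 kinds of culture of embryonic stem (ES) cells and their feeders. The genes were listed by name for their known roles, and all 46 were found among the 19630 genes of the deposited count table and passed the filter on low counts. Each of the 6 groups had 3 libraries, 18 in all. In the first group ES cells were grown with ATN161, a peptide inhibitor of the fibronectin receptor integrin α5β1, in place of feeders. In the second, ES cells from cultures on control feeders were sequenced with the feeders removed. In the third, ES cells were cultured on feeders labelled p53-defective. In the fourth, they were cultured on control feeders. The last 2 groups were feeders alone, labelled p53-defective or control. Feeders, a cell layer that supports ES cells in culture, are labelled as embryonic fibroblasts in both groups. The labels give no strain, no age, no dose of ATN161, no means by which p53 was made defective and no number of animals or lines behind a group, and they do not say whether the feeders were arrested before use, as feeders commonly are. They also do not say how feeders were removed, or that replicates were separate cultures, so the p-values speak for the spread among these libraries, which may be technical.

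Entry into mitosis is driven by the kinase Cdk1 bound to cyclin A or cyclin B, and exit by the anaphase-promoting complex (APC/C), which marks cyclin B and securin for destruction. Between these steps the Aurora and Polo-like kinases, kinesin motors and the kinetochore, the protein structure that ties chromosomes to spindle fibres, align the chromosomes under the watch of the spindle assembly checkpoint. The messages of most of these proteins peak in G2 and M phase and are low in cells that have left the cycle. In that quiet state a complex of MuvB and pocket proteins (DREAM) is known to hold many of the genes down through a promoter element called CHR, and p53 is known to favour this state through the inhibitor p21, the product of Cdkn1a. The same genes are turned on by B-Myb, Foxm1 and the CCAAT-binding factor NF-Y. ES cells in culture are known for a short cycle with little G1 phase.

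The letters of these promoters are shown because the members moved together in most of the comparisons given here. RefSeq promoter windows of 300 bases (250 before to 50 after an annotated start of a gene, assembly GRCm38.p6) matched 38 of the 46 genes by gene identifier, in 41 windows. For some genes, Cdc25b, Aurka, Ect2, Kif2c and Pttg1 among them, the window lay inside the RefSeq span of the gene. Bases at the outer start of those genes were not searched. The core of the CHR element, TTTGAA, was found on either strand in 30 of the 41 windows (73.2%), against 17.9% of all 32851 windows of the table. CCAAT was found on either strand in 30 windows (73.2%), against 37.4% of all windows, and both motifs in 26 (63.4%), against 7.0%. Counted by gene, 27 of the 38 had TTTGAA, 27 CCAAT and 23 both, against 5466, 11096 and 2155 of the 27025 genes of all windows. Over the 15445 windows of the genes tested, the shares were 12.4%, 37.9% and 5.2%. A match describes letters and is not a binding site or a cause, and a window without a match says nothing of a factor. The windows printed here run from 120 bases before to 50 bases after the start and come from genes of mitotic entry, the spindle and anaphase, with Cdc25b shown for comparison because its level followed the other members least. The 8 genes with no entry in the table were Ccna2, Cdc25c, Foxm1, Tpx2, Aurkb, Incenp, Kif20a and Dlgap5. Sequences are written 5′ to 3′ on the gene's strand, with capitals marking TTTGAA and CCAAT, or TTCAAA and ATTGG where the motif lies on the other strand. The 2 motifs do not overlap in any of them.
Cdk1 (chr10:69352863-69353032, minus strand): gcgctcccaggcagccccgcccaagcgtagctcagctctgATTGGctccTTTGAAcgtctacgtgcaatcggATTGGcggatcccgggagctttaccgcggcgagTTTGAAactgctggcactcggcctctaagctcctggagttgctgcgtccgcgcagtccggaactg
Ccnb2 (chr9:70421505-70421674, minus strand): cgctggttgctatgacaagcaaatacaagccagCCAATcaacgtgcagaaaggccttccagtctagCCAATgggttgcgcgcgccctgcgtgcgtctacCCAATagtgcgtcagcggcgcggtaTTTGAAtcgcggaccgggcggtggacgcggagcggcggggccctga
Plk1 (chr7:122159315-122159484, plus strand): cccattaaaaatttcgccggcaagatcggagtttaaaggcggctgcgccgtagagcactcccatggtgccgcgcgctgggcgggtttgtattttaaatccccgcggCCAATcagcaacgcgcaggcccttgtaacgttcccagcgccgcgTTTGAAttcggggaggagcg
Aurka (chr2:172370521-172370690, minus strand): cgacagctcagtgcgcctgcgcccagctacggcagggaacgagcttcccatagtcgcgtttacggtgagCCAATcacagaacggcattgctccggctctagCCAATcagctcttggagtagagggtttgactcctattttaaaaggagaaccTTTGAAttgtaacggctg
Hmmr (chr11:40733388-40733557, minus strand): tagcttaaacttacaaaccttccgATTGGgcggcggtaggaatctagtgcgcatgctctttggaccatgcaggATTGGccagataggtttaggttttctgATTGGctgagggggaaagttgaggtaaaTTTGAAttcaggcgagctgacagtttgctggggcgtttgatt
Cdc20 (chr4:118437294-118437463, minus strand): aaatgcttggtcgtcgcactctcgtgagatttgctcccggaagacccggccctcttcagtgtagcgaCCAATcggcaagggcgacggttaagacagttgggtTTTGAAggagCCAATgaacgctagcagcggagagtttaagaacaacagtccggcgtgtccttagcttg
Ube2c (chr2:164769809-164769978, plus strand): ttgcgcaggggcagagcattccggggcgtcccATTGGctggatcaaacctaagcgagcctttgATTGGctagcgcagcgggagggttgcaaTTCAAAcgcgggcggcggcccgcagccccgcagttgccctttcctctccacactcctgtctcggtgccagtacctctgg
Cdc25b (chr2:131186828-131186997, plus strand): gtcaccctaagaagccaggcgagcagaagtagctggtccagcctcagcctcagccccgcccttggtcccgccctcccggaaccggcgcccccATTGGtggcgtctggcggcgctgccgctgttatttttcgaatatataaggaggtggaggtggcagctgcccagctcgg
The first 7 windows hold both motifs, and the window of Cdc25b holds CCAAT only. Ccnb1, Bub1 and Cenpe, not shown, also had CCAAT only in the 300 bases. They correlated with the mean of the other members at 0.9794, 0.9848 and 0.8534. Of the members not shown, Nuf2, Kif18a, Knstrn, Nusap1, Mad2l1, Pttg1 and Birc5 had neither motif in the 300 bases and correlated with the mean of the other members at 0.9317 to 0.9841 over the 18 libraries, while Mki67 (0.7153) and Bub3 (0.7579) had both.

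Library totals were 15.12 to 19.83 M counts. The p53 label was first checked on Trp53 itself: its message stood at 326, 317 and 244 CPM (counts per 1000000, scaled by the TMM method) in p53-defective feeders, against 123, 124 and 112 CPM in control feeders, so the label does not stand for a lost message. Of its known targets, Cdkn1a fell to 260 ± 65 CPM in p53-defective feeders, against 664 ± 16 CPM in control feeders, and Mdm2 fell to 164 ± 13 CPM, against 436 ± 8.4 CPM (SD, n = 3 each). In co-culture Cdkn1a was at 835 ± 51 CPM on p53-defective feeders and 931 ± 37 CPM on control feeders, which did not pass the test, and Mdm2 was lower, at 82.0 ± 4.5 CPM and 613 ± 23 CPM. The labelled cell types were checked on marker lists. Of 14 ES cell markers 10 were at 0 in p53-defective feeders and 8 in control feeders, Pou5f1 among them. Their summed level was 6464 to 6711 CPM with ATN161, 5349 to 5518 CPM after feeder removal, 347 to 482 CPM on p53-defective feeders and 3990 to 4149 CPM on control feeders. The 14 fibroblast markers summed to 1073 to 1194 CPM with ATN161 and 4475 to 4891 CPM after feeder removal, so fibroblast messages were measured in both kinds of library labelled as ES cells alone. The markers go against the fibroblast label for p53-defective feeders, where the same 14 summed to 5825 to 8487 CPM, against 33947 to 41067 CPM in control feeders, and 10 mesothelial markers to 1515 to 2336 CPM, against 59 to 68 CPM. Of these 10, Krt8 and Krt18 went the other way, with means under 1 CPM in p53-defective feeders but not in control feeders.

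The summed level of the 46 genes fell into 6 separate ranges. It was 9009 to 9209 CPM with ATN161, 6981 to 7257 CPM after feeder removal, 1737 to 1930 CPM in ES cells on p53-defective feeders, 5558 to 5760 CPM in ES cells on control feeders, 3054 to 3274 CPM in p53-defective feeders and 827 to 878 CPM in control feeders. No range overlapped another, and the spread within a group was small beside the gaps. ES cells on control feeders thus carried more of these messages than the feeders alone, while ES cells on p53-defective feeders carried less than p53-defective feeders alone. In mixed or bulk cultures, fewer cells of a type and less RNA per cell cannot be told apart.

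**Figure D1:**
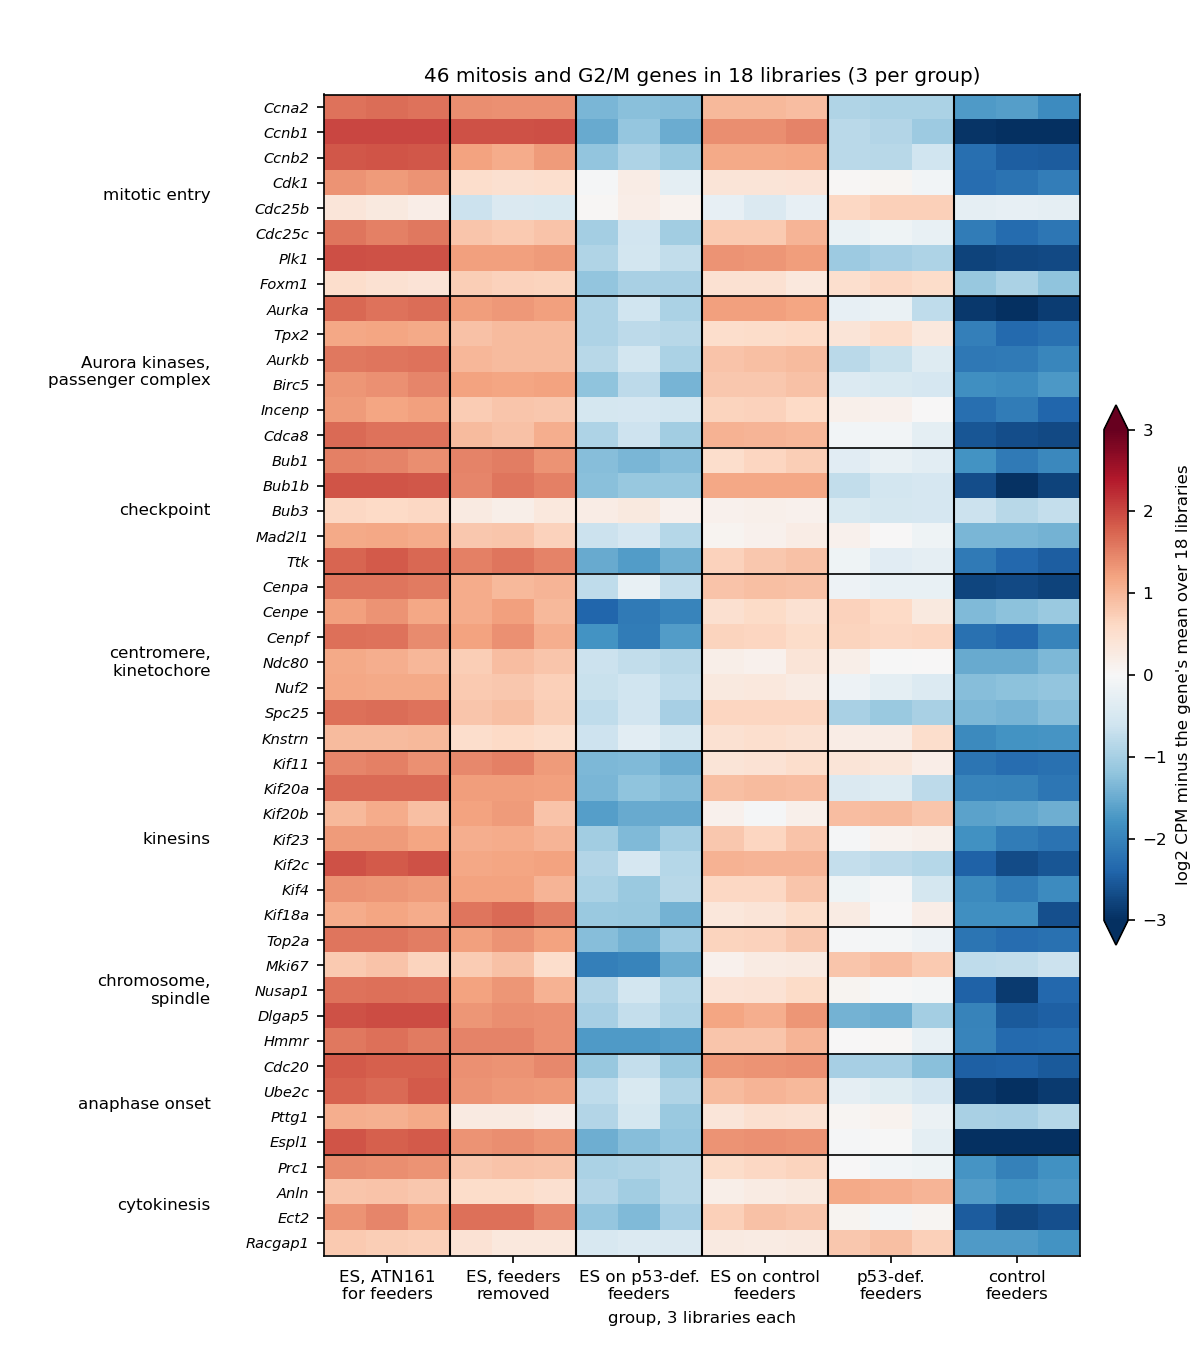
Levels of the 46 genes (rows, grouped by role) in 18 libraries (columns, 3 per group), as log2 CPM minus the gene's mean over the libraries, with values beyond 3 in either direction drawn at the end of the color scale. Control feeders form the bluest block, and the block of ES cells on p53-defective feeders is bluer than that of p53-defective feeders for most rows, with Bub3 and Cdc25b nearly flat across the groups.

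The first comparison asked what the p53 label went with in feeders alone. All 46 genes were higher in p53-defective feeders than in control feeders, 40 of them by at least 2-fold, where 35.9% of the 15389 genes tested were called higher and 15.3% higher by at least 2-fold (edgeR quasi-likelihood test, Benjamini-Hochberg adjusted p below 0.05 over all genes tested). The median log2 fold change of the members was 2.03, against -0.01 over all genes tested. In each of the 46 genes all 3 libraries of p53-defective feeders lay above all 3 of control feeders, which held for 35.5% of the genes tested.

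Among the genes of mitotic entry, Ccnb1, which encodes cyclin B1, stood at 79.6, 76.2 and 66.2 CPM in p53-defective feeders, against 18.2, 16.4 and 16.8 CPM in control feeders. Cdk1, the kinase it activates, stood at 149, 152 and 138 CPM, against 29.7, 31.4 and 34.4 CPM. Plk1, the Polo-like kinase that helps trigger entry and spindle assembly, stood at 35.7, 38.3 and 40.0 CPM, against 11, 11.5 and 11.7 CPM. In all 3 genes the p53-defective feeders were several times higher with no overlap, at log2 fold changes of 2.11 ± 0.09, 2.20 ± 0.10 and 1.74 ± 0.09 (SE; adjusted p = 3.88e-15, 2.48e-15 and 3.66e-14). Foxm1, a transcription factor that turns on G2/M genes, had 61.2, 66.0 and 62.3 CPM, against 19.5, 22.1 and 18.6 CPM (log2 fold change 1.65 ± 0.08). The smaller rises of this group were those of Ccna2, which encodes cyclin A2 (0.81 ± 0.07), and of Cdc25b, a phosphatase that activates Cdk1 (0.95 ± 0.08).

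The 6 Aurora kinase and passenger complex genes rose with a median log2 fold change of 2.42. Tpx2, whose product activates Aurora A on the spindle, was at 190, 209 and 182 CPM in p53-defective feeders, against 34.9, 28.7 and 30.7 CPM in control feeders, a log2 fold change of 2.62 ± 0.08. Aurkb, the kinase of the passenger complex, was at 25.7, 28.3 and 34.3 CPM, against 10.2, 10.4 and 11.5 CPM (1.46 ± 0.11). The 4 genes of the central spindle and cytokinesis had the highest median of the 8 roles, 2.59, led by Anln, which encodes the contractile ring protein anillin, at 224, 219 and 208 CPM, against 32.0, 28.9 and 30.7 CPM (2.83 ± 0.07).

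The kinesins rose in 7 of 7 genes. Kif11, the motor that pushes spindle poles apart, had 89, 86.6 and 78.1 CPM in p53-defective feeders, against 14.8, 13.9 and 14.5 CPM in control feeders (2.55 ± 0.08). Of the chromosome-associated proteins, Top2a, the topoisomerase that untangles sister DNA, had 280, 273 and 258 CPM, against 62.7, 58.2 and 60.4 CPM (2.16 ± 0.08). Mki67, the proliferation antigen Ki-67, had 175, 186 and 169 CPM, against 58.2, 58.6 and 62.9 CPM (1.56 ± 0.11). None of the 3 genes overlapped between the groups, and for Mki67 the control feeder libraries also lay above those of ES cells on p53-defective feeders. The highest log2 fold changes of all were those of Espl1, which encodes the cohesin-cutting protease separase (3.03 ± 0.10, an 8.15-fold change), Anln and Cenpf, a kinetochore and nuclear matrix protein (2.82 ± 0.11).

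At the other end stood checkpoint and kinetochore members. Bub3, a checkpoint protein that also binds the APC/C, was at 95.0, 90.6 and 91.5 CPM in p53-defective feeders, against 83.1, 72.4 and 79.1 CPM in control feeders, a rise of 0.24 ± 0.07 (adjusted p = 0.0027). Spc25, a subunit of the Ndc80 complex that holds spindle fibres, had 20.1, 18.4 and 20.2 CPM, against 15.6, 15 and 16.3 CPM, a rise of 0.32 ± 0.09 (adjusted p = 0.0035). Its partners in that complex rose by more, Ndc80 by 1.52 ± 0.10 and Nuf2 by 0.94 ± 0.09. Cdc20, which activates the APC/C, rose by 1.39 ± 0.10 on the log2 scale.

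Other genes of the pathway moved less evenly in feeders. Beside the counts by list given here, 35.9% of all genes tested were called higher and 38.4% lower. All 8 condensin subunits, which compact chromosomes, were called higher (Ncapg 63.6 CPM in p53-defective feeders, 14.3 CPM in control feeders). Of 13 cohesin genes and their protectors 10 were higher and 1 lower, with Sgo1, which guards cohesin at centromeres, at a log2 fold change of 2.17 ± 0.09. Of 30 DNA replication and G1/S genes 27 were higher and 2 lower, led by Cdt1, Pole, Rfc4 and Mcm7. Of 15 genes of APC/C subunits and its activator Cdh1, which act through much of the cycle, 6 were higher and 5 lower, with a median of 0.20. These counts are near the shares over all genes. Of 8 inhibitors of mitotic entry 4 were higher and 2 lower, Cdkn1a and Sfn. Among 12 MuvB, B-Myb and pocket protein genes, 7 were higher and 3 lower, and Mybl2, which encodes B-Myb, rose by 1.89 ± 0.11. Other markers moved with the label as well. The 14 fibroblast markers all fell and 8 of the 10 mesothelial markers rose, with the sums given above, and 12 macrophage markers summed to 11 to 15 CPM, against 141 to 192 CPM, with 7 of them at 0 in p53-defective feeders, Adgre1 and Ptprc included. Their part in the result was not tested.

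The second comparison set ES cells on p53-defective feeders against ES cells on control feeders. Of the 46 genes 44 were lower, 38 of them by at least 2-fold, and 1 was higher, where 46.7% of all genes were called lower, 29.4% lower by at least 2-fold and 36.6% higher. The median log2 fold change was -1.76, against -0.18 over all genes tested. This direction is set against all messages of the mixed culture: scaled on 421 ES-specific genes (genes whose level with ATN161 and after feeder removal was 8-fold or more that of either kind of feeder, at 10 CPM or more, with the members left out), all 46 members were higher and none lower on p53-defective feeders, with a median of 1.29 beside a median of 2.86 over all genes. Under that scaling 13196 of 15389 genes were called higher and 623 lower. A change of scaling shifts all genes of a comparison by nearly the same amount. The members' median minus that of all genes, -1.58 and -1.57, could therefore hardly differ between the 2 scalings.

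Ccnb1 had 49.4, 63.3 and 50 CPM on p53-defective feeders, against 368, 372 and 397 CPM on control feeders, the widest gap among the members (log2 fold change -2.81 ± 0.09, or 0.24 when scaled on ES-specific genes). Plk1 had 40.6, 52.3 and 45.3 CPM, against 193, 191 and 181 CPM (-2.03 ± 0.08, or 1.02). Cdc20 had 46.3, 62.0 and 46 CPM, against 256, 259 and 262 CPM (-2.33 ± 0.09, or 0.71). In these genes every library on p53-defective feeders lay below every library on control feeders. The checkpoint kinases and adaptors Bub1, Bub1b and Ttk were lower by 1.95 to 2.34 on the log2 scale of all genes.

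Cdk1 stood apart from its cyclins. It had 142, 169 and 118 CPM on p53-defective feeders, against 191, 191 and 194 CPM on control feeders, a change of -0.42 ± 0.09 that is small beside those of Ccna2, Ccnb1 and Ccnb2 (-2.26, -2.81 and -2.21), though the libraries did not overlap. Scaled on ES-specific genes its change was 2.63. Cdc25b was the member called higher, at 27.3, 30.6 and 29.0 CPM, against 22.8, 20 and 22.6 CPM (0.41 ± 0.08, adjusted p = 7.4e-05), but the deposited TPM (transcripts per 1000000, corrected for length and not scaled by TMM) gave the other direction, 10.5 TPM against 12.5 TPM (log2 ratio -0.26). Bub3 was the member not called, at 152, 159 and 142 CPM, against 141, 144 and 142 CPM (0.09 ± 0.07, adjusted p = 0.219, or -0.58 on TPM), and its CPM overlapped. On TPM all 46 members were lower on p53-defective feeders, with a median log2 ratio of -2.43 beside -0.83 over all genes.

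Kinetochore members ranged widely. Cenpe, the kinesin that carries chromosomes to the spindle equator, changed by -2.66 ± 0.12 (0.39 when scaled on ES-specific genes), while Ndc80, Nuf2 and Knstrn, which encodes the kinetochore-associated protein kinastrin, were lower by 0.95 to 0.97. Cenpa, the histone variant that marks centromeres, had 42.9, 62.4 and 43.8 CPM on p53-defective feeders, against 132, 135 and 134 CPM on control feeders (-1.43 ± 0.10, or 1.62). Kif11 had 26.6, 27 and 24.4 CPM, against 89.1, 91.9 and 97.2 CPM (-1.84 ± 0.08, or 1.22). Top2a had 117, 107 and 135 CPM, against 455, 460 and 501 CPM (-1.98 ± 0.08, or 1.08), and Mki67 23.8, 25.1 and 35.6 CPM, against 107, 116 and 118 CPM (-2.01 ± 0.11, or 1.04). Espl1 changed by -2.65 ± 0.08, or 0.40.

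Beside these values, on the scale of all genes, 27 of 29 other kinetochore and centromere genes, 12 of 13 cohesin genes and 7 of 8 condensin genes were lower on p53-defective feeders. Over all genes tested, 46.7% were called lower and 36.6% higher. Of 30 replication genes 24 were lower and 5 higher, with a median of -1.17, less far down than the -1.76 of the members. Pole, Orc1, Mcm10 and Ccne1 had the smallest p, and Mcm10 stood at 14.3 CPM on p53-defective feeders, against 125 CPM on control feeders. The APC/C list went the other way, with 10 of 15 genes higher and 4 lower (median 0.53), Anapc16 at 68.2 CPM, against 30.7 CPM. Mybl2 was at 35.1 CPM, against 387 CPM, and Wee1, the kinase that holds Cdk1 inactive, at 19.6 CPM, against 82.6 CPM. The ES cell markers fell in 14 of 14 genes, as given above, the fibroblast markers, with 8 genes higher and 4 lower, summed to 17544 to 24860 CPM, against 7060 to 7402 CPM, and the 10 mesothelial markers, all called higher, to 2248 to 2325 CPM, against 43 to 46 CPM. The share of the change that goes with the mix of cells cannot be told apart from a change within the ES cells.

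**Figure D2:**
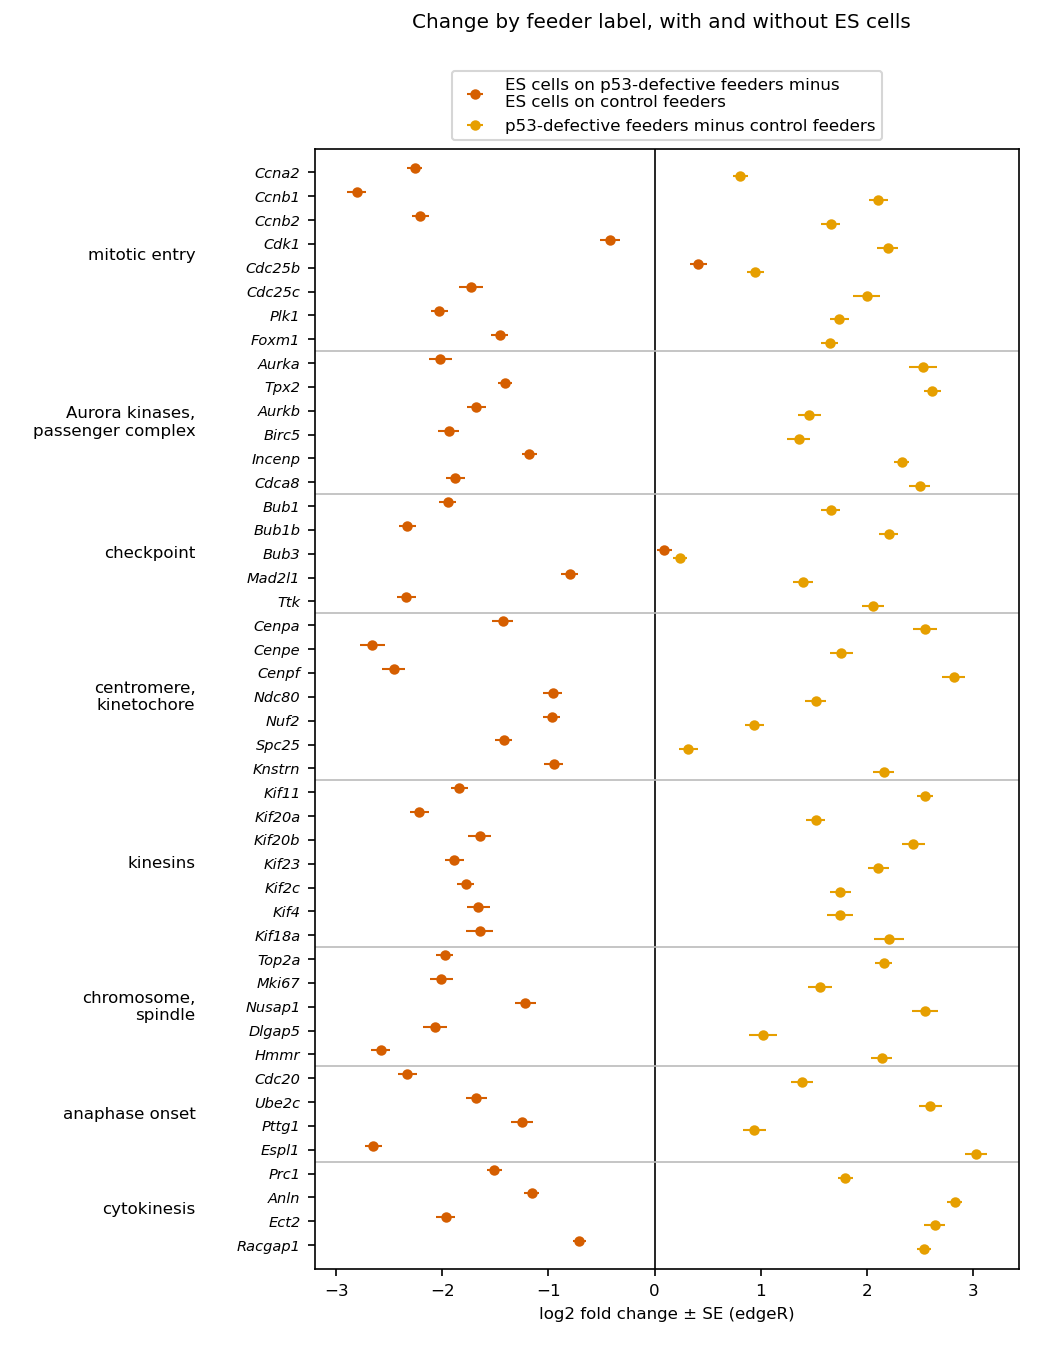
Log2 fold change ± SE of each gene for ES cells on p53-defective feeders minus ES cells on control feeders and for p53-defective feeders minus control feeders (scaled on all genes). Scaled on ES-specific genes the co-culture points would all lie above 0, beside a median of 2.86 over all genes. Feeders alone lie right of 0 for all 46 genes, and co-cultures lie left of 0 for 44, with Cdc25b and Bub3 to the right of 0, though on the deposited TPM both lie to the left, at log2 ratios of -0.26 and -0.58.

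The 2 label effects were compared by their difference, the change in co-culture minus the change in feeders alone, fitted as one contrast. It was called lower for 45 genes and higher for none, where 34.8% of all genes were called lower and 38.8% higher. The median was -3.74, against 0.04 over all genes. Espl1 had the widest difference, -5.68 ± 0.13, followed by Cenpf at -5.28 ± 0.16 and Ccnb1 at -4.92 ± 0.13. Spc25 at -1.74 ± 0.13 and Cdc25b at -0.54 ± 0.11 had the narrowest of those called. For Bub3 the difference was -0.15 ± 0.09, which did not pass (adjusted p = 0.146). The difference is not reported on the scale of ES-specific genes. By definition these are at least 8-fold lower in feeders alone than in ES cells without feeders. By list, 26 of 30 replication genes were called lower in this contrast and 8 of 15 APC/C genes higher.

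Each co-culture was then set against its own feeders. ES cells on control feeders were higher than control feeders in 45 of 46 genes and lower in none, where 44.3% of all genes were called higher and 39.9% lower, with a median of 2.79. Espl1 and Ccnb1 differed most, by 4.49 ± 0.10 and 4.47 ± 0.10 on the log2 scale. Aurka, the centrosomal Aurora kinase, followed at 153, 154 and 148 CPM in the co-culture, against 8.88, 8.09 and 9.09 CPM in control feeders (4.12 ± 0.12). Bub3 and Mki67 rose least of those called, by 0.86 ± 0.07 and 0.93 ± 0.11. The member not called, Cdc25b, had 22.8, 20 and 22.6 CPM, against 22.2, 22.5 and 22.1 CPM (-0.03 ± 0.08), a value whose sign changed with the filter and with the libraries used. ES cells after feeder removal, set against the same control feeder libraries, were higher in 45 genes and lower in 1, Cdc25b (-0.24 ± 0.08), where 45.1% of all genes were called higher and 40.8% lower, with a median of 3.13.

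ES cells on p53-defective feeders went the other way from their feeders. Of the 46 genes 38 were lower than in p53-defective feeders and 4 higher, where 33% of all genes were called lower and 46.7% higher, with a median of -0.75, against 0.27 over all genes. Mki67 fell to 23.8, 25.1 and 35.6 CPM in the co-culture, against 175, 186 and 169 CPM in p53-defective feeders (-2.65 ± 0.12). Cenpe had 6.06, 7.24 and 8.08 CPM, against 51.5, 47.7 and 39.0 CPM (-2.69 ± 0.12), and Cenpf 10.4, 8.42 and 11.3 CPM, against 57.6, 55.3 and 56.2 CPM (-2.48 ± 0.11). All 3 had no overlap. The 4 genes called higher were Bub3 (0.71 ± 0.07), Dlgap5, a spindle assembly factor (0.41 ± 0.12), Plk1 (0.28 ± 0.08) and Spc25 (0.25 ± 0.09). These directions did not hold on the deposited TPM, where all 46 members were lower in the co-culture, with a median log2 ratio of -1.48 beside -0.54 over all genes and ratios of -0.05, -0.35, -0.48 and -0.54 for these 4. The count of higher genes was 1 with only the groups compared in the fit, and 7 without the third library of ES cells on p53-defective feeders. Cdk1, Aurkb, Kif2c and Cdc20 did not pass the test, with overlapping libraries. Spc25, though called, overlapped as well, at 23.5, 26.5 and 19.7 CPM in the co-culture, against 20.1, 18.4 and 20.2 CPM in p53-defective feeders. Cdkn1a stood at 835 CPM in this co-culture, against 260 CPM in its feeders. In the same contrast the 14 fibroblast markers were all higher in co-culture, at the sums given above, and their part in the result was not tested.

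In ES cells on p53-defective feeders, 34 of the 46 members (73.9%) had all 3 libraries below every library of p53-defective feeders and of ES cells after feeder removal, which held for 20.2% of all genes tested. No member lay above both, as 24% of genes did. The 12 members that did not lie below both were Cdk1, Cdc25b, Plk1, Aurka, Aurkb, Bub3, Cenpa, Spc25, Kif2c, Dlgap5, Cdc20 and Ube2c. The count was 39 with CPM not scaled by TMM, 34 with the size factors of DESeq2 and 44 with the deposited TPM, and 34 to 39 with a library left out, alternatives chosen after seeing the data. For these alternatives the share over all genes was not counted. On the deposited TPM the median log2 ratio over all genes was itself negative, -0.54 against p53-defective feeders and -0.79 against feeder removal. Tested against feeder removal alone, ES cells on p53-defective feeders were lower in 44 members and higher in 1, Cdc25b (0.62). Of all genes 47.2% were called lower and 38.6% higher, and the member median was -2.04, against -0.21 over all genes. Scaled on ES-specific genes they were higher in 43 members and lower in none, where 13458 of 15389 genes were called higher and 581 lower. The member median was then 1.33, against 3.16 over all genes. These groups were not parts of one culture, so the comparison describes levels and does not split the mixture.

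**Figure D3:**
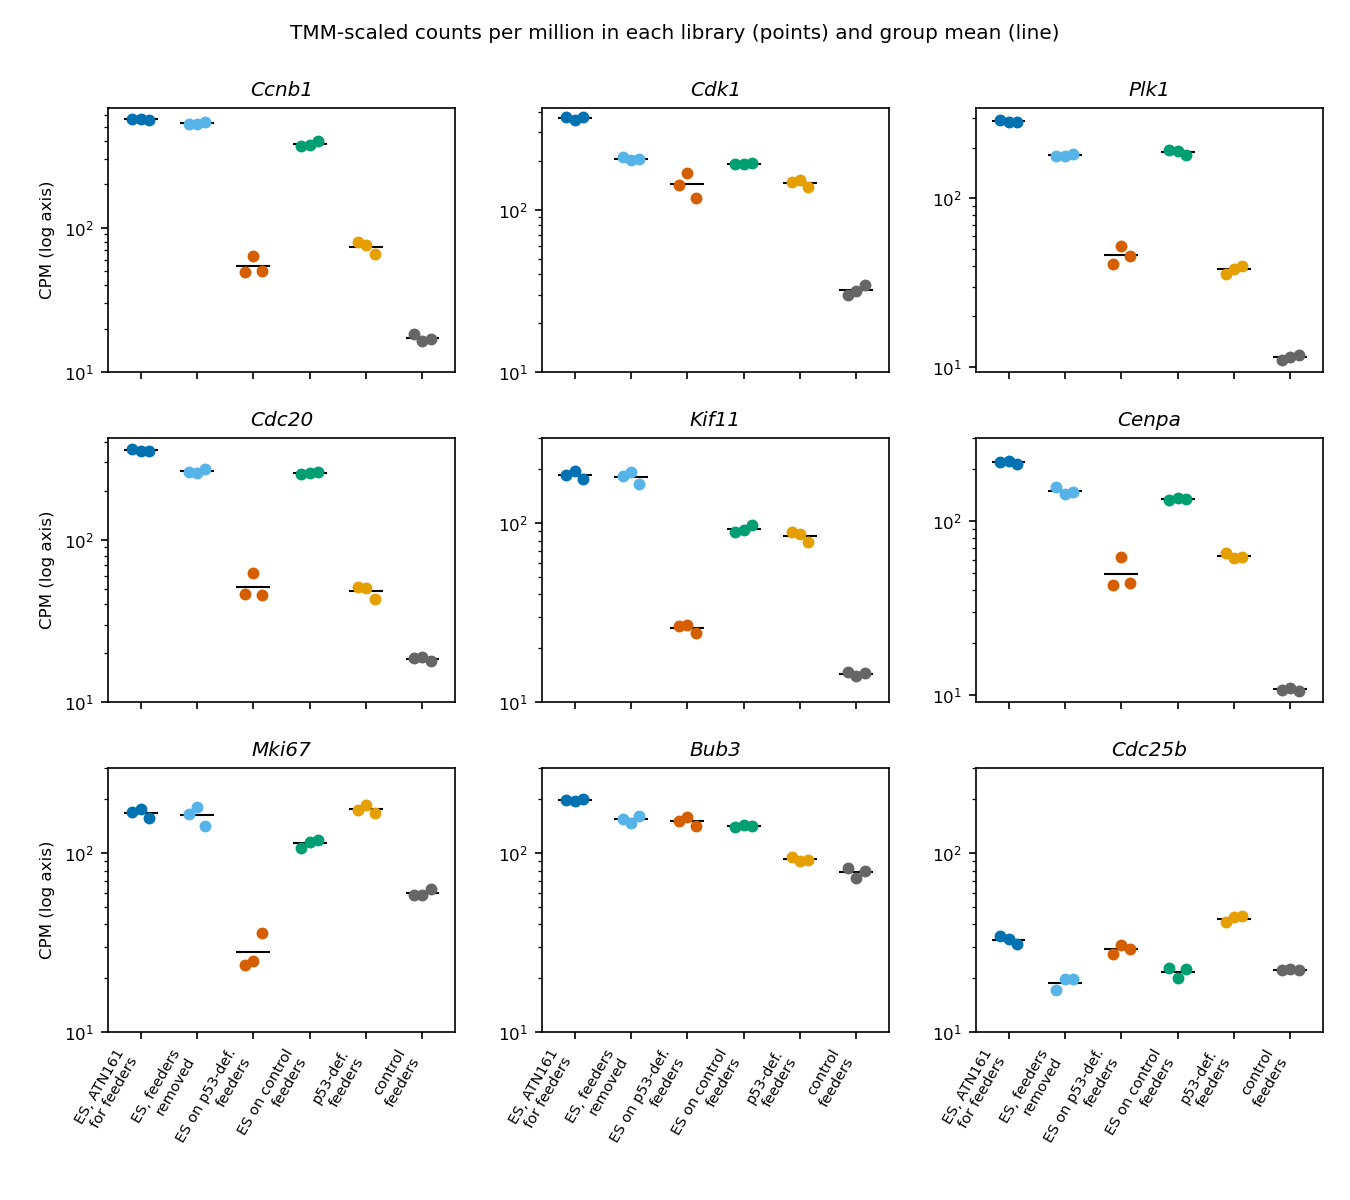
CPM of 9 members in each library (points; log axes that differ between panels) with the group mean (line). Ccnb1, Kif11 and Mki67 in ES cells on p53-defective feeders lie below p53-defective feeders, Cdk1 and Cdc20 overlap with them, and Bub3 and Cdc25b span a narrow range.

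Cultures without feeders were set against ES cells on control feeders. After feeder removal 27 of the 46 genes were higher, 1 was lower and 18 were not called, where 25.5% of all genes were called higher and 26.5% lower. The median was 0.31, against -0.01 over all genes. With a library left out, 23 to 26 members were higher, with a median of 0.24 to 0.28, so the fit of all libraries gave the highest values. Scaled on ES-specific genes the member median was -0.01, against -0.33 over all genes. Under that scaling 11 members were higher and 11 lower, where 1251 of 15389 genes were called higher and 7632 lower. The ES cell markers were themselves higher after feeder removal in 12 of 14 genes, and fibroblast markers lower in 8 of 14. Kinesins made up the 3 highest: Kif18a, which limits chromosome oscillation, had 40.8, 43.0 and 38.7 CPM after removal, against 16.9, 17.5 and 19.4 CPM on control feeders (1.18 ± 0.10). Kif20b, a motor of late mitosis, had 73.4, 76.9 and 57.4 CPM, against 34.8, 31.2 and 35.5 CPM (1.03 ± 0.09), and Kif11 183, 194 and 165 CPM, against 89.1, 91.9 and 97.2 CPM (0.96 ± 0.07). None of the 3 overlapped.

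By role, 4 of 5 checkpoint genes, 6 of 7 kinesins, 2 of 6 genes of the Aurora group and 1 of 4 anaphase genes were higher after feeder removal, beside 25.5% of all genes. Scaled on ES-specific genes, 3 of 5 checkpoint genes, 3 of 7 kinesins and 1 of 5 chromosome and spindle-associated genes were higher and none lower. Of 8 entry genes 4 were lower, as were 2 of 6 Aurora group genes and 3 of 4 anaphase genes, with none higher. Of 7 kinetochore genes 3 were higher and 1 lower, and of 4 cytokinesis genes 1 and 1. Under this scaling 1251 of 15389 genes were called higher and 7632 lower, and differences between roles were not tested. Ccnb1 rose by 0.48 ± 0.08, Top2a by 0.53 ± 0.08 and Mki67 by 0.52 ± 0.10. Plk1 had 179, 178 and 184 CPM, against 193, 191 and 181 CPM, with overlap and no call (-0.06 ± 0.07), and Cdk1 had 210, 202 and 206 CPM, against 191, 191 and 194 CPM (0.10 ± 0.09, not called, and -0.22 when scaled on ES-specific genes). Pttg1, which encodes the separase inhibitor securin, stood at -0.19 ± 0.10, not called. Cdc25b was the member called lower, at 17.1, 19.8 and 19.7 CPM, against 22.8, 20 and 22.6 CPM (-0.21 ± 0.08, adjusted p = 0.0411). That call was lost without the third library on control feeders or without the first after feeder removal. All 13 cohesin genes and 24 of 30 replication genes were higher on this scale, and 6 of 15 APC/C genes were.

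With ATN161 in place of feeders 45 of the 46 genes were higher than in ES cells on control feeders and none was lower, where 33.6% of all genes were called higher and 28% lower. The rises were modest: the median was 0.70, against 0.07 over all genes, and 3 genes passed 2-fold, as 1.81% of all genes did. Scaled on ES-specific genes, 23 members were higher and 1 lower, with a median of 0.25 beside -0.38 over all genes. Under that scaling 653 of 15389 genes were called higher and 8071 lower. Nusap1, a microtubule bundling protein, had 139, 141 and 138 CPM with ATN161, against 59.4, 60.6 and 66.3 CPM on control feeders (1.17 ± 0.09). Spc25 had 125, 127 and 123 CPM, against 62.0, 61.6 and 62.2 CPM (1.02 ± 0.08). Kif11 had 186, 195 and 177 CPM, against 89.1, 91.9 and 97.2 CPM (1 ± 0.07).

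Cdk1 had 371, 355 and 373 CPM with ATN161, against 191, 191 and 194 CPM on control feeders (0.93 ± 0.09), and Plk1 had 292, 284 and 284 CPM, against 193, 191 and 181 CPM (0.61 ± 0.07). Ccnb1 had 566, 565 and 561 CPM, against 368, 372 and 397 CPM (0.57 ± 0.08), and Top2a 873, 872 and 829 CPM, against 455, 460 and 501 CPM (0.86 ± 0.08). None of these overlapped. Cdc20 and Aurka rose least of those called, by 0.46 ± 0.09 and 0.47 ± 0.10. Foxm1 did not pass the test, at 61.8, 59.2 and 57.4 CPM, against 59.0, 59.3 and 53.4 CPM (0.05 ± 0.07, adjusted p = 0.542, and -0.40 when scaled on ES-specific genes or -0.19 on TPM), and the libraries overlapped. Cdkn1a was lower with ATN161, at 405 CPM, against 931 CPM (-1.20 ± 0.12). Of 30 replication genes 28 were higher, as were 8 of 8 condensin and 11 of 15 APC/C genes, where 33.6% of all genes were called higher. The 14 fibroblast markers were all lower with ATN161, their part in the result was not tested, and the ATN161 effect cannot be told apart from the absence of feeders.

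**Figure D4:**
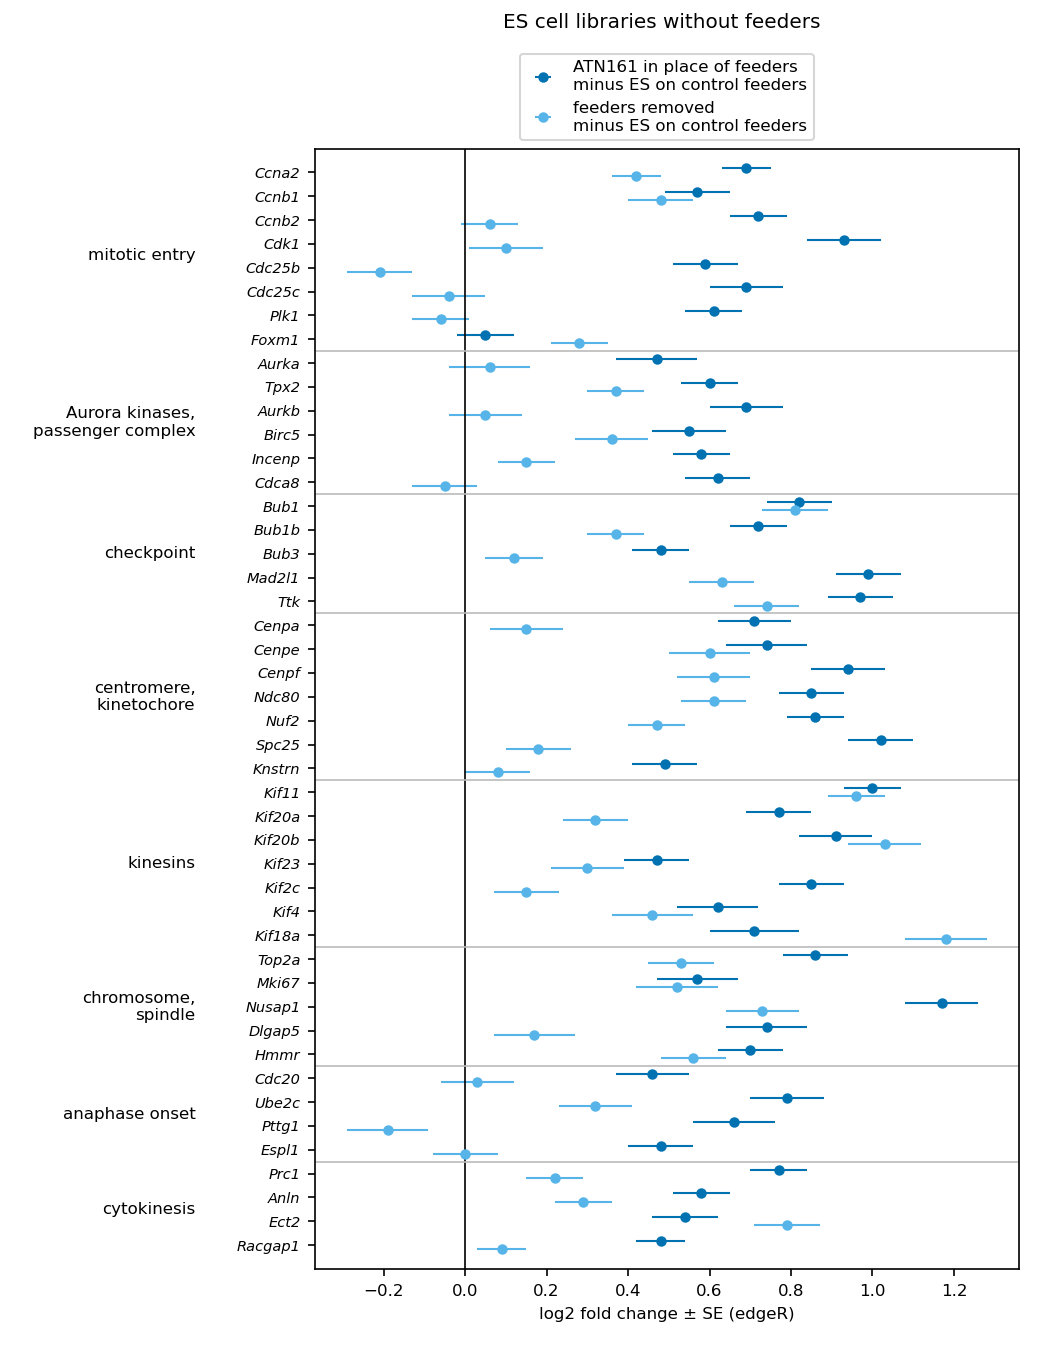
Log2 fold change ± SE of each gene for ES cells with ATN161 and for ES cells after feeder removal, each minus ES cells on control feeders (scaled on all genes). Scaled on ES-specific genes the member medians are 0.25 and -0.01, against -0.38 and -0.33 over all genes. The ATN161 points lie to the right for most genes, while Kif18a, Kif20b, Ect2 and Foxm1 lie further right after feeder removal (Foxm1 changes sign there when scaled on ES-specific genes); both sets share the same control libraries.

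The 2 cultures without feeders were compared directly. With ATN161 33 of the 46 genes were higher than after feeder removal and 3 were lower, where 28.6% of all genes were called higher and 26.8% lower, with a median of 0.37, against 0.03 over all genes. Scaled on ES-specific genes, 24 were higher and 4 lower, where 2472 of 15389 genes were called higher and 4944 lower. The member median was then 0.24, against -0.1 over all genes. Pttg1 had 82.9, 81.9 and 85.6 CPM with ATN161, against 47.3, 46.9 and 45.0 CPM after feeder removal (0.85 ± 0.10). Spc25 followed at 0.84 ± 0.08 and Cdk1 at 0.83 ± 0.09, with Plk1 at 0.67 ± 0.07. The genes called lower were Kif18a, at 29.0, 30.4 and 29.0 CPM, against 40.8, 43.0 and 38.7 CPM (-0.47 ± 0.10), Ect2, an activator of the GTPase of the cleavage furrow (-0.24 ± 0.08), and Foxm1 (-0.22 ± 0.07). Without the third ATN161 library 1 gene was called lower. Ccnb1 was not called, at 566, 565 and 561 CPM, against 526, 524 and 538 CPM (0.09 ± 0.08, or -0.04 when scaled on ES-specific genes and -0.09 on TPM). All 4 anaphase genes and 6 of 8 entry genes were higher, against 2 of 7 kinesins. No cohesin gene of 13 was higher, and 4 were lower, Stag2 at 51.1 CPM, against 76.6 CPM. The fibroblast markers were lower in 13 of 14 genes, and their part was not tested.

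Taking the means of the 6 groups gene by gene, 38 members were highest with ATN161, 4 after feeder removal and 4 in p53-defective feeders. Control feeders were lowest for 42 members, ES cells on p53-defective feeders for 3 and ES cells after feeder removal for 1, Cdc25b. The order from ATN161 through feeder removal, ES cells on control feeders, p53-defective feeders and ES cells on p53-defective feeders to control feeders held for 26 members. Between genes, levels were compared per length on the deposited TPM. In ATN161 cultures these ran from 12.8 TPM for Kif18a to 648 TPM for Ube2c, the ubiquitin-conjugating enzyme of the APC/C, and in ES cells on p53-defective feeders from 0.953 TPM for Cenpe to 86.8 TPM for Ube2c. Bub3 at 85.1 TPM was close behind Ube2c in that co-culture and was the most abundant member in control feeders, at 76.7 TPM, where Cenpf was the least, at 1.34 TPM.

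How closely each member followed the rest was described by the correlation of its log2 CPM with the mean of the other members over the 18 libraries, which fall into 6 groups and share their scaling. Prc1, which bundles the central spindle, was at 0.9968, Top2a at 0.9964 and the chromokinesin Kif4 at 0.9934. Cdc25b was at -0.0015, Mki67 at 0.7153 and Bub3 at 0.7579. The 5 genes outside the list with the highest correlation with the mean of all members were Tacc3 (0.9978), Rad54b (0.997), Traip (0.9948), Cdca3 (0.9934) and Nek2 (0.9923). Tacc3, a spindle protein that partners Aurora A, had 178, 167 and 172 CPM with ATN161, 134, 137 and 131 CPM after feeder removal, 40.9, 47.4 and 39.1 CPM on p53-defective feeders and 115, 116 and 116 CPM on control feeders. It had 65.3, 67.9 and 70.1 CPM in p53-defective feeders and 24.5, 25 and 22 CPM in control feeders, the same order of groups as the summed members.

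Transcript length moved with some of these changes. The longest GENCODE M21 transcript of the 46 genes ran from 0.97 to 11.13 kb. In ES cells on p53-defective feeders minus p53-defective feeders, the log2 fold changes of the members had a Spearman correlation of -0.71 with length, and those of 14738 genes one of -0.32. Members under 2 kb had a median of -0.34 (11 genes), those of 2 to 4 kb -0.65 (21 genes) and those of 4 kb or more -1.43 (14 genes), against 0.87, 0.26 and -0.26 over all genes of those lengths. In ATN161 minus feeder removal the correlations were -0.56 and -0.31, with member medians of 0.64, 0.35 and 0.19, against 0.24, 0.06 and -0.17. In p53-defective minus control feeders the correlations were 0.37 and -0.01, after feeder removal 0.44 and 0.09, and for co-cultures by feeder label -0.16 and -0.17. Genes share libraries and are not replicates, and the part of length in the changes was not tested.

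**Figure D5:**
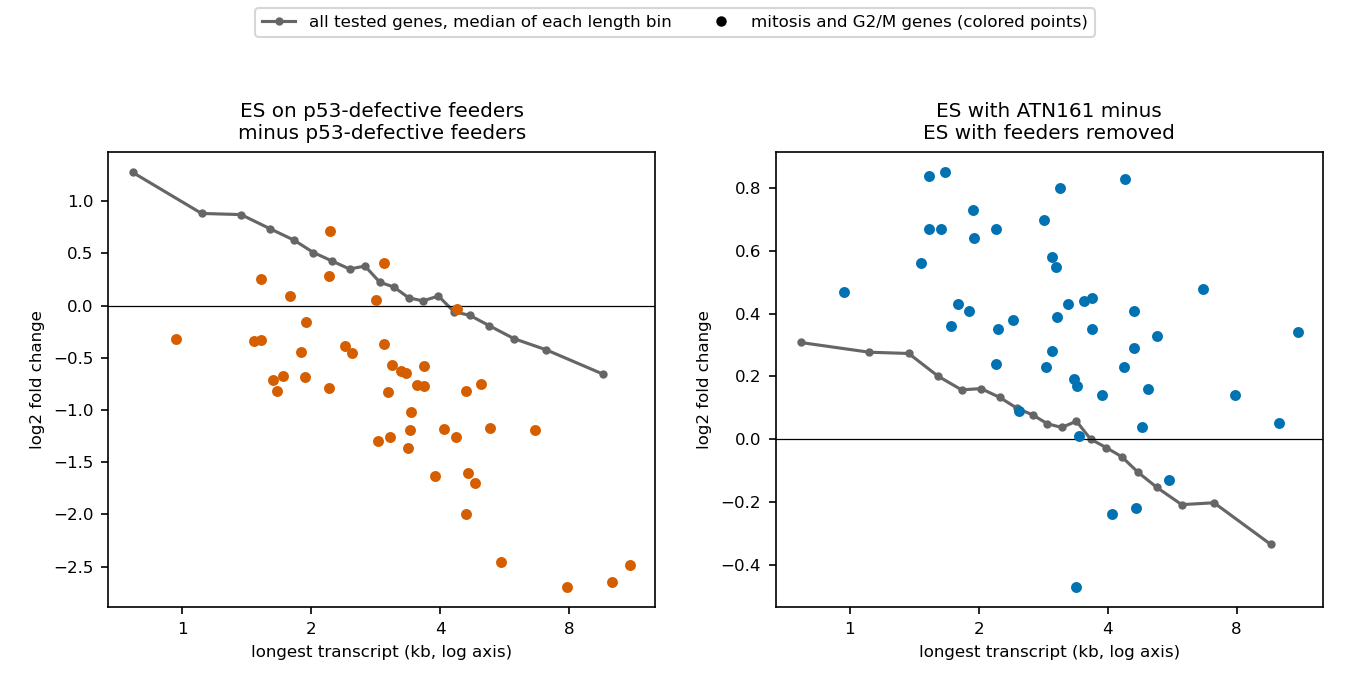
Log2 fold change against the longest transcript (kb, log axis) of the 46 genes (colored points), with the median of all tested genes in bins of length (grey line), for ES cells on p53-defective feeders minus p53-defective feeders (left) and ES cells with ATN161 minus ES cells after feeder removal (right). Scaled on ES-specific genes the member median on the right is 0.24, against -0.1 over all genes. Both grey lines fall with length, and the points lie mostly below the line on the left and above it on the right.

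Some values carry limits of counting. RefSeq lists pseudogenes of Ccnb1, Ccnb2 and Kif4, whose reads may not be told from those of the gene. Predicted transcript models took most counts of Cenpf, Mki67 and Tpx2, of which 29.8%, 40.2% and 44.4% lay on curated transcripts. The lowest member anywhere was Cdc25c, a phosphatase that activates Cdk1, with 158 counts over the 3 control feeder libraries.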

How the data were processed

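RNA of 18 mouse libraries (6 groups of 3) was isolated with Trizol and made into libraries with the Illumina TruSeq mRNA kit, per the labels' protocols. HISAT2 2.1.0, SAMtools 1.4, StringTie 1.3.3b, DESeq2 1.2.10 and the builds mm10 and GRCm38 are named in the submitters' processing notes, which give them no role or order. The deposited table holds expected counts of 75416 RefSeq transcripts (32625 curated, 42791 predicted), not normalized by the authors, and TPM of the same transcripts as the authors deposited them. Its 36 other per-sample columns and 24 columns of averages were not used. Expected counts were summed per gene (89.3% of sums were whole within 0.05), rounded, and tested with edgeR 4.0.16 in R 4.3.3: TMM scaling, a filter that kept 15389 of 19630 genes, a quasi-likelihood fit over all 6 groups and Benjamini-Hochberg adjustment over all genes tested, with calls at 0.05. The common biological coefficient of variation was 0.0792. CPM are TMM-scaled counts per 1000000 counts, and TPM were summed per gene. The script was tested on simulated data.

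The 46 genes, the pathway lists and the marker lists were chosen with earlier results of these data known. All members could be named; values of every library are given for 12 fixed members and, in each comparison, for members among the 3 highest and 3 lowest log2 fold changes, with up to 4 genes of smallest p per pathway list and the 5 other named genes closest to the members' mean. Alternatives were the DESeq2 1.42.0 Wald test and its size factors, 2 other filters, curated transcripts alone, a fit of only the groups compared, library sizes set by ES-specific genes, the replicate number as a block, and leaving out each library. The deposited TPM and the counts by role under ES-specific scaling were added after seeing the data. Library totals were 15.12 to 19.83 M counts, and the lowest sum of a member over a group was 158 counts.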

Additional observations from a re-analysis of the deposited data

Results flagged for a closer look

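The change that went with the p53 label in co-culture differed from that in feeders alone for 45 of the 46 genes, by a test of the difference itself (edgeR contrast of the 4 groups, adjusted p below 0.05). All 45 were called lower, where 34.8% of all genes tested were called lower and 38.8% higher. The difference, co-culture minus feeders alone, was -5.68 on the log2 scale for Espl1, -5.28 for Cenpf and -4.92 for Ccnb1. It was -1.74 for Spc25 and -0.54 for Cdc25b. The co-cultures also hold feeders, and ES cell markers fell in the same libraries.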

How the results depend on the processing

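Scaling on ES-specific genes was the choice that changed most. On p53-defective against control feeders it gave 46 members higher and 0 lower, where 13196 of 15389 genes were called higher and 623 lower. The log2 fold changes were 0.24 for Ccnb1, 2.63 for Cdk1, 1.02 for Plk1, 1.62 for Cenpa, 0.39 for Cenpe, 1.22 for Kif11, 1.08 for Top2a, 1.04 for Mki67, 0.71 for Cdc20 and 0.40 for Espl1. Against feeder removal, ES cells on p53-defective feeders had 1 member higher and 44 lower on the scale of all genes, and 43 higher and 0 lower on this one. On the latter 13458 of 15389 genes were called higher and 581 lower, and the values were 0.08 for Ccnb1, 0.12 for Cenpe and 3.34 for Bub3. After feeder removal the ES-specific scaling gave 11 higher and 11 lower, where 1251 of 15389 genes were called higher and 7632 lower. It gave -0.22 for Cdk1 and turned the sign of 5 called members (Foxm1, Kif20a, Kif23, Prc1 and Anln). With ATN161 it gave 23 higher and 1 lower, with -0.40 for Foxm1, where 653 of 15389 genes were called higher and 8071 lower. Against feeder removal it gave -0.04 for Ccnb1. It was not run for comparisons with feeders alone, where those genes are near 0 by definition.

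The count of 1 member higher on p53-defective feeders was 2 with no filter and with only the groups compared, and 1 to 2 with a library left out (2 without each of the 3 libraries on control feeders in turn, or without the third on p53-defective feeders). The 1 member lower after feeder removal became 2 with no filter, with at least 5 CPM in 3 libraries and with only the groups compared, and 0 to 1 with a library left out. The 4 members higher on p53-defective feeders than in those feeders became 1 with only the groups compared, and 3 to 7 with a library left out. Leaving out a library gave 1 to 4 members lower with ATN161 than after feeder removal, 1 to 2 higher on p53-defective feeders than after feeder removal (2 without the third library on p53-defective feeders) and 0 to 1 lower after feeder removal than in control feeders (0 without the second control feeder library or the first after removal).

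The deposited TPM, an alternative chosen after seeing the data and given as ratios of means with no test, turned 5 called members. On p53-defective against control feeders Cdc25b had -0.26, and Bub3, not called, -0.58. On p53-defective feeders against those feeders Bub3 had -0.05, Dlgap5 -0.35, Plk1 -0.48 and Spc25 -0.54, and Cdc20, not called, -0.68. With ATN161 Foxm1 had -0.19 and, against feeder removal, Ccnb1 -0.09, neither called.

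Under the other filters, transcripts and sets of libraries, no called member changed sign, and 5 named members that were not called did. Foxm1 with ATN161 had -0.03 with no filter, with 5 CPM and with only the groups compared, -0.05 with curated transcripts and -0.07 to 0.08 with a library left out. Cdc25b on control feeders against those feeders had 0.05 with no filter and with 5 CPM, 0.02 with curated transcripts and -0.04 to 0.11 with a library left out. Cdk1 on p53-defective feeders against those feeders had 0.09 with no filter, 0.02 with 5 CPM and -0.17 to 0.21 with a library left out, and Cdc20 there had -0.02 with only the groups compared and -0.07 to 0.28. Bub3 on p53-defective feeders against feeder removal (-0.03) had 0.12 with no filter, 0.04 with 5 CPM, 0.03 with curated transcripts, 0.11 with only the groups compared and -0.08 to 0.15 with a library left out. The cause was not tested.

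With the replicate block 0 members were called lower after feeder removal. The numbers did not pair the libraries: of 45 same-numbered pairs, correlations of deviations ran from -0.113 to 0.223 with 3 over 0.1, and 5 of 18 libraries correlated best with their own number. Counts of members called kept within 1.5 times of those reported in 268 of 294 recomputations.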
